A study of Arabidopsis thaliana with 16 samples.

Results

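The comparison sets Landsberg erecta (Ler) plants of Arabidopsis thaliana sampled at 10 h against Ler plants sampled at 4 h. It holds 8 of the 16 arrays of the series, 4 at 10 h and 4 at 4 h, chosen by the genotype and time in their titles. At each time 2 arrays came from plants labelled 22 °C and 2 from plants labelled 16 °C. Ler is the wild type of the study and carries no added mutation, per the labels, and the other 8 arrays hold phyB-1, a mutant of the photoreceptor phytochrome B. The RNA was taken from the whole plant without its roots, and the plants were raised on soil after cold treatment of the seed. The growth text reads the same for each sample, with 11 days at 16 °C and then 21 days at 22 °C, so the history of the 16 °C plants cannot be read from it. The starting point of the hour count is not stated. Replicate arrays are not described as separate batches of plants, so the p-values measure the spread between these samples, which may be technical.

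Plants change much of their transcript pool over a day. A circadian clock of morning and evening transcription factors runs with the light cycle, photoreceptors report light, and leaves build starch while they photosynthesise and break it down when sugar runs short. Genes of starch and amino acid breakdown, photosynthesis and pigment synthesis are textbook examples of transcripts that differ between times of day.

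Each 10 h array was paired with the 4 h array of the same temperature and replicate number, which gave 4 pairs. Changes below are mean differences over the pairs, 10 h minus 4 h, on the scale log2(intensity + 16), with their standard error (SE). The added 16 makes the changes of dim genes smaller than their true ratio. A probe set is called when limma's moderated test gave a Benjamini-Hochberg adjusted p under 0.05 over the 13647 probe sets tested. Array medians ran from 30.7 to 37.1 at 10 h and from 30.8 to 39.5 at 4 h, and replicate arrays correlated at 0.96 to 0.967. The log2 ratio of 3' to 5' GAPDH control probe sets, a sign of RNA integrity, was 0.474 to 0.752 at 10 h and 0.323 to 0.707 at 4 h. That of the actin probe sets was 3.34 to 4.26 at 10 h and 3.05 to 3.98 at 4 h, and the 25S rRNA probe set read 122 to 2640 at 10 h and 245 to 1460 at 4 h. The part of RNA quality in the results was not tested. In RNA of whole shoots, fewer cells of a type and less RNA per cell cannot be told apart.

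The 2 times differed across much of the transcriptome. Of the probe sets tested, 1889 were called higher at 10 h, which is 13.8%, and 1939 were called lower, which is 14.2%. A change of more than 1 on the log2 scale was reached by 610 of the higher and 640 of the lower probe sets, and a change of more than 3 by 30 and 27. The arrays of the 2 times did not overlap for 2718 of the 3828 called probe sets, and for 3091 of all 13647 tested. The call itself favours probe sets whose arrays lie apart. Genes could be named for 7311 of the tested transcripts, of which 940 (12.9%) were called higher and 918 (12.6%) lower, with a median log2 change of -0.003. The changes of the 2 pairs of one temperature correlated at 0.803 at 22 °C and at 0.79 at 16 °C across probe sets, and pairs of different temperatures at 0.687 to 0.723, as a description over probe sets that share arrays and are not independent.

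The 3 largest rises among named genes were of genes that were dim at 4 h, at 32.7 or less on every array. AT3G15630 (chr3:5296841-5297851, TAIR10.1), a protein-coding gene with no name in the annotation used, had intensities of 823 and 1090 at 22 °C and 1520 and 1960 at 16 °C at 10 h, against 5.5 and 32.7 at 22 °C and 4.3 and 30.7 at 16 °C at 4 h. All 4 arrays of 10 h were bright and all 4 of 4 h dim, with no overlap, and the log2 change was 5.36 ± 0.21 (SE, n = 4 pairs, adjusted p = 2.3e-09). COR27 (chr5:17197641-17199910), a cold-regulated gene that acts on the clock and on flowering time, had 904 and 912 at 22 °C and 546 and 738 at 16 °C at 10 h, against 16.3 and 0.728 at 22 °C and 1.52 and 10.4 at 16 °C at 4 h. It rose by 5.12 ± 0.17 (SE, n = 4 pairs, adjusted p = 7e-10), a 34.7-fold change on the scale used. Among genes named from probe sets of a single gene, with apart arrays, the same sign in all pairs and a mean of at least 64 at the higher time, 559 met the conditions for being ranked as rises, and the 15 largest lay between 2.7 and 5.36. The lack of overlap in the ranked rises and falls was thus a condition of their choice and not a result.

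AKINBETA1 (chr5:7205477-7208613) encodes a beta subunit of SnRK1, the kinase complex that responds to low energy. Its intensities were 398 and 512 at 22 °C and 357 and 354 at 16 °C at 10 h, against 53.7 and 32.8 at 22 °C and 39.7 and 40.8 at 16 °C at 4 h. Every array of 10 h was above every array of 4 h, by 2.86 ± 0.16 on the log2 scale (SE, n = 4 pairs, adjusted p = 3.9e-08). AT5G61590, annotated as DEWAX, a transcription factor that lowers wax synthesis, had 1550 and 985 at 22 °C and 1660 and 2010 at 16 °C at 10 h, against 198 and 157 at 22 °C and 109 and 235 at 16 °C at 4 h. It rose by 3.04 ± 0.17 (SE, adjusted p = 4e-08) with no overlap. The other rises in this group were AT5G19120 (4.79), AT3G15450 (4.49), AT3G59350 (4.14), AT1G07050 (3.33), AT2G30600 (3.12), AT3G10020 (3.00), AT4G33980 (2.99), AT2G30930 (2.95), EXLA1 (2.87), AT1G54740 (2.86) and AT1G25275 (2.70), given as log2 changes. AT3G15450 was the brightest of them at 10 h, with 3120 and 3000 at 22 °C and 4980 and 4540 at 16 °C, against 166 and 132 at 22 °C and 158 and 165 at 16 °C at 4 h. A second probe set of AT2G30600 gave 2.98.

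**Figure D1:**
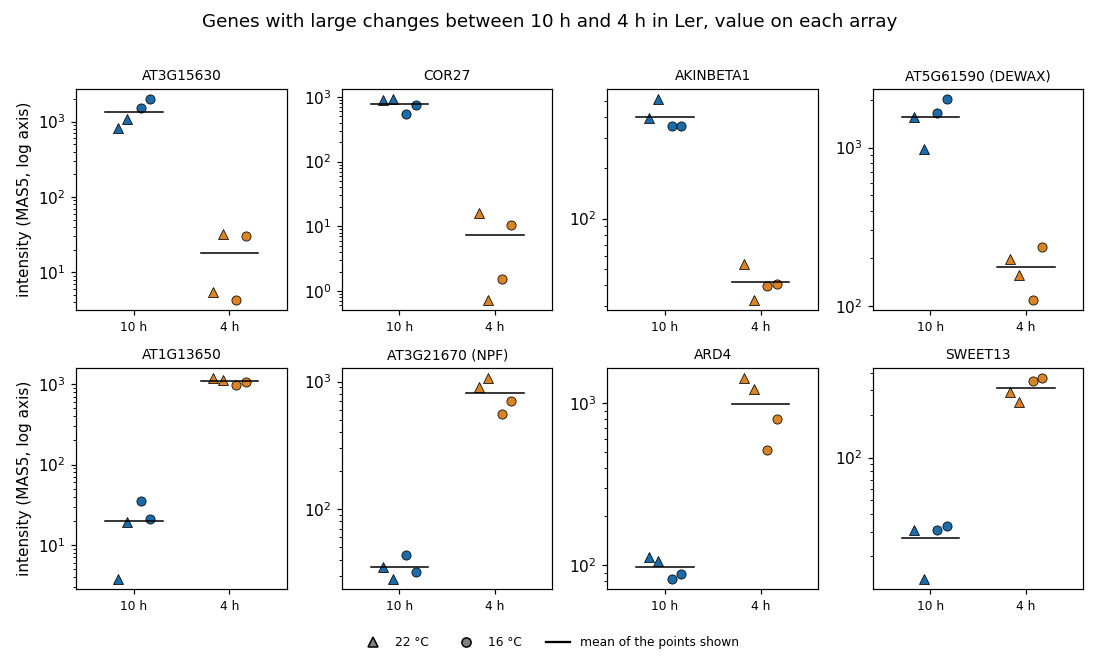
Intensity on a log axis on each of the 8 Ler arrays for 4 genes that rose (top) and 4 that fell (bottom), 10 h at the left and 4 h at the right of each panel, triangles for 22 °C and circles for 16 °C, with a line at the mean of the 4 arrays. The 10 h and 4 h arrays do not overlap in any panel, which was a condition for choosing these genes. COR27 lies between 546 and 912 at 10 h and at or below 16.3 at 4 h.

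The falls were of similar size. AT1G13650 (chr1:4680290-4682382), which has no name in the annotation used, had 3.79 and 19 at 22 °C and 34.9 and 21 at 16 °C at 10 h, against 1180 and 1130 at 22 °C and 968 and 1060 at 16 °C at 4 h. The 4 arrays of 10 h were all dim, and the gene fell by 5.02 ± 0.21 on the log2 scale (SE, n = 4 pairs, adjusted p = 3.1e-09). AT3G21670, annotated as NPF6.4 of the nitrate and peptide transporter family, had 35.4 and 28.4 at 22 °C and 43.7 and 32.3 at 16 °C at 10 h, against 913 and 1060 at 22 °C and 553 and 710 at 16 °C at 4 h. It fell by 3.98 ± 0.19 (SE, adjusted p = 9.3e-09) with no overlap.

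ARD4, of the acireductone dioxygenase family of methionine salvage, had 112 and 106 at 22 °C and 82.3 and 87.6 at 16 °C at 10 h, against 1430 and 1230 at 22 °C and 518 and 797 at 16 °C at 4 h, a change of -3.07 ± 0.17 (SE, adjusted p = 3.2e-08). At both temperatures its 10 h arrays lay far under its 4 h arrays. GH9C2, of the endoglucanase family that cuts cell wall glucans, fell by 3.03 ± 0.16 (SE, adjusted p = 3e-08), with 61.4 to 73.2 at 10 h against 469 to 909 at 4 h. Of the 579 genes that met the conditions for being ranked as falls, the 15 largest lay between -2.74 and -5.02. They also held AT1G73600 (-3.94), AT5G35970 (-3.53), AT1G20070 (-3.09), AT5G15950 (-3.02), AT5G01790 (-2.98), SWEET13 (-2.95), AT3G56290 (-2.92), AT3G44450 (-2.89), AT3G48460 (-2.85), AT1G60590 (-2.81) and AT5G55620 (-2.74).

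Some of the largest changes of all belonged to probe sets that the annotation used here does not name. Probe set 252367_at had 2250 and 1710 at 22 °C and 2300 and 2250 at 16 °C at 10 h, against 3.66 and 0.793 at 22 °C and 1.89 and 2.13 at 16 °C at 4 h, a log2 change of 6.88 ± 0.13 (SE, n = 4 pairs, adjusted p = 4e-12). Probe set 267461_at changed by 6.40 ± 0.23. In the other direction, 262113_at changed by -5.09 ± 0.27 and 252607_at by -4.56 ± 0.13.

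The counts of called genes in the lists below are to be read beside 12.9% called higher and 12.6% called lower over all genes tested. Few genes of the clock itself could be read. Of 23 clock genes listed, 2 had a named probe set, and both were tested. GIGANTEA (GI), an evening gene that links the clock to flowering, had 57.7 and 85.5 at 22 °C and 122 and 159 at 16 °C at 10 h, against 133 and 175 at 22 °C and 255 and 186 at 16 °C at 4 h. It fell by 0.78 ± 0.16 (SE, adjusted p = 0.0025), and the arrays of the 2 times overlapped across temperatures but not within either. AT5G52660, listed as RVE6, a MYB-like activator of evening genes, had a change of -0.41 ± 0.15 that was not called (adjusted p = 0.067).

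Of 5 tested genes of clock output and flowering, 2 rose, 1 fell and 2 were not called. COR27 and AT4G33980, entered in the list as its relative COR28, were the 2 that rose. AT4G33980 had 237 and 364 at 22 °C and 121 and 228 at 16 °C at 10 h, against 16.9 and 9.33 at 22 °C and 21.7 and 9.71 at 16 °C at 4 h, with no overlap. SNZ, an AP2-type repressor of flowering, fell by 1.96 ± 0.24 (SE, adjusted p = 3.4e-05), with 2.48 to 38.6 at 10 h against 94.9 to 180 at 4 h. AGL24, a promoter of flowering, and SMZ, the relative of SNZ, gave 0.25 and -0.45 and were not called. HYH, a bZIP factor that acts with HY5 in light responses, was the only 1 of 26 listed light signalling genes with a named probe set. It had 1.53 and 6.39 at 22 °C and 10.2 and 0.66 at 16 °C at 10 h, against 40.3 and 44.7 at 22 °C and 81.3 and 46.4 at 16 °C at 4 h. The 10 h arrays were all near background, and HYH fell by 1.73 ± 0.20 (SE, adjusted p = 2.6e-05).

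Of 18 listed genes of starch breakdown 2 were tested, and both rose. PWD, the phosphoglucan water dikinase that phosphorylates starch for its release, had 665 and 738 at 22 °C and 846 and 702 at 16 °C at 10 h, against 190 and 275 at 22 °C and 301 and 224 at 16 °C at 4 h. It rose by 1.53 ± 0.13 (SE, n = 4 pairs, adjusted p = 1.1e-06) with no overlap. DPE1, the disproportionating enzyme that reworks short glucans in the plastid, rose by 1.01 ± 0.15 (adjusted p = 0.00025). On the synthesis side, APL3, a large subunit of ADP-glucose pyrophosphorylase, fell by 1.14 ± 0.22 (adjusted p = 0.0016), with 9.14 to 19.9 at 10 h against 33.2 to 75.9 at 4 h. SBE2.2, a starch branching enzyme, gave -0.29 and was not called.

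Of the 4 tested genes in the list of low-sugar responses, 3 rose and none fell, with a median log2 change of 1.52. AKINBETA1 was described above. MCCA (chr1:739544-744184) and MCCB, the subunits of methylcrotonyl-CoA carboxylase in leucine breakdown, were the others. MCCA had 173 and 185 at 22 °C and 162 and 182 at 16 °C at 10 h, against 38.5 and 29.2 at 22 °C and 5.7 and 29.7 at 16 °C at 4 h. The 10 h values were nearly equal across the 4 arrays and well above those of 4 h, and MCCA rose by 2.27 ± 0.19 (SE, adjusted p = 1.3e-06), while MCCB rose by 0.77 ± 0.13 (adjusted p = 0.00053). IVD, isovaleryl-CoA dehydrogenase of the same pathway, gave 0.26 ± 0.15 and was not called.

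A wider list of branched-chain amino acid and lysine breakdown was drawn up after the values were seen. Of its 10 tested genes, MCCA and MCCB included, 6 rose and none fell, with a median of 0.68. ALDH6B2, the methylmalonate semialdehyde dehydrogenase of valine breakdown, had 554 and 745 at 22 °C and 519 and 772 at 16 °C at 10 h, against 171 and 201 at 22 °C and 142 and 214 at 16 °C at 4 h. It rose by 1.74 ± 0.12 (SE, adjusted p = 3.4e-07). ETFBETA and ETFQO, which pass electrons from these dehydrogenases to the respiratory chain, rose by 0.72 and 0.64, whereas ETFALPHA, the partner of ETFBETA, gave -0.14 and was not called.

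Of 10 tested genes named ATG or APG, which act in autophagy, 6 rose and none fell, with a median of 0.52. The family is mainly that of ATG8, the ubiquitin-like protein that coats autophagosomes. ATG8E (chr2:18624264-18625791) had 418 and 365 at 22 °C and 532 and 460 at 16 °C at 10 h, against 97.5 and 65.2 at 22 °C and 46.9 and 65.1 at 16 °C at 4 h. It rose by 2.46 ± 0.18 (SE, n = 4 pairs, adjusted p = 3.9e-07), and no array of 4 h reached the lowest of 10 h. ATG8D rose by 1.19, ATG8F by 0.69, ATG8C by 0.67, APG8A by 0.59 and APG8H by 0.45, and the last 2 lost the call in 7 of 17 alternatives each. ATG8H, ATG3, ATG8G and ATG8B gave 0.02 to 0.32 and were not called.

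Of 49 listed nuclear genes of photosynthesis 10 were tested, of which 8 fell, by 0.36 to 1.92, and none rose, with a median of -0.49. LHCB4.2 (chr3:2717557-2718923), a minor antenna protein of photosystem II, stood apart from its relatives. It had 1090 and 963 at 22 °C and 635 and 822 at 16 °C at 10 h, against 3730 and 3190 at 22 °C and 2860 and 3510 at 16 °C at 4 h. It fell by 1.92 ± 0.12 (SE, n = 4 pairs, adjusted p = 1e-07) with no overlap. LHCB4.1 of the same antenna family, at 6550 to 7430 at 10 h against 7920 to 10500 at 4 h, fell by 0.36 ± 0.11 (adjusted p = 0.029) and was no longer called in 10 of 17 alternatives, and LHCB4.3 gave -0.40 and was not called.

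RCA, the activase of Rubisco, fell by 0.83 ± 0.11 (adjusted p = 7.5e-05), with 3990 to 6220 at 10 h against 8210 to 12000 at 4 h. PSBY of photosystem II fell by 0.80, SBPASE of the Calvin cycle by 0.61, PSAE-1 of photosystem I by 0.50, PRK of the Calvin cycle by 0.49, not called in 9 of 17 alternatives, and PSAN of photosystem I by 0.48. PSBW of photosystem II gave -0.12 and was not called. All 5 were read at 2480 or more on every Ler array, where the added 16 has little effect.

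Of 6 tested genes of chlorophyll and carotenoid synthesis, 3 fell and none rose. AT1G74470, annotated as geranylgeranyl reductase, which makes the phytol tail of chlorophyll, had 1950 and 2180 at 22 °C and 2430 and 2490 at 16 °C at 10 h, against 4700 and 5840 at 22 °C and 4800 and 5460 at 16 °C at 4 h. It fell by 1.2 ± 0.11 (SE, adjusted p = 3.5e-06). LYC, lycopene cyclase, fell by 0.50 and CHLM, a magnesium protoporphyrin methyltransferase, by 0.40, the last not called in 7 of 17 alternatives. PORB, CHLI2 and GSA1, all of chlorophyll synthesis, gave 0.02 to 0.33 and were not called.

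Of 68 tested genes of the plastid genome, 3 fell and none rose, beside 12.6% called lower and 12.9% called higher over all genes. The share called was thus below that of all genes, and the median was -0.06. The 3 that fell were rbcL, the large subunit of Rubisco (-0.98 ± 0.23, adjusted p = 0.0063), psbD of photosystem II (-0.58 ± 0.13, adjusted p = 0.0038) and atpB of the plastid ATP synthase (-0.32 ± 0.10, adjusted p = 0.026). The rbcL value leaned on 1 pair: it had 237 and 697 at 22 °C and 738 and 497 at 16 °C at 10 h, against 1160 and 920 at 22 °C and 1110 and 840 at 16 °C at 4 h, and gave -0.57 (adjusted p = 0.011) without the replicate 1 pair at 22 °C. It was no longer called in 2 of 17 alternatives, and psbD likewise in 2, while atpB lost the call in 11 and turned direction in 1. The last was quantile normalization in place of the deposited scaling, where atpB gave 0.03. None of 4 tested mitochondrial-genome genes was called.

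Of 21 listed genes of flavonoid and anthocyanin synthesis 5 were tested, and all 5 fell. Their median was -1.31, which was -1.82 with 1 and -0.80 with 64 in place of the added 16. UGT78D1 (chr1:10814612-10816615) and UGT78D2 encode the enzymes that attach rhamnose and glucose to flavonols. UGT78D1 had 58.6 and 58.7 at 22 °C and 58.2 and 59.4 at 16 °C at 10 h, against 208 and 214 at 22 °C and 231 and 322 at 16 °C at 4 h. The 10 h arrays were almost equal and all below those of 4 h, and it fell by 1.78 ± 0.15 (SE, n = 4 pairs, adjusted p = 1.2e-06). UGT78D2 fell by 1.71 ± 0.14 (adjusted p = 1.1e-06).

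DFR, dihydroflavonol reductase at the entry to anthocyanins, had 49.5 and 96.9 at 22 °C and 145 and 139 at 16 °C at 10 h, against 108 and 144 at 22 °C and 431 and 341 at 16 °C at 4 h. It was brighter at 16 °C at either time, so the 2 times overlapped across temperatures, and it fell by 1.02 ± 0.16 (adjusted p = 0.00037). UF3GT, an anthocyanin glycosyltransferase, fell by 1.07 ± 0.19 (adjusted p = 0.00076). AT4G14090, entered in the list as UGT75C1, fell by 1.31 ± 0.29 (adjusted p = 0.004) and was no longer called in 3 of 16 alternatives. It was dim at 22 °C, with 2.4 and 13.2 at 10 h against 3.92 and 42.6 at 4 h. Its change was -0.56 at 22 °C and -2.05 at 16 °C, a difference that was not called (limma, adjusted p = 0.067).

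A list of glucosinolate synthesis, the sulfur-rich defence compounds of the cabbage family, was drawn up after the values were seen. Of its 7 tested genes 6 fell and none rose, with a median of -1.26. UGT74B1, which adds glucose to the glucosinolate core, had 138 and 125 at 22 °C and 113 and 76.6 at 16 °C at 10 h, against 517 and 487 at 22 °C and 292 and 331 at 16 °C at 4 h. It fell by 1.70 ± 0.15 (SE, adjusted p = 1.6e-06). AT2G31790, entered as UGT74C1, fell by 1.81 and the transcription factor MYC4 by 1.26. AOP3 and BCAT4, of methionine-derived glucosinolate synthesis, fell by 1.37 and 1.18, and AOP1, also entered in the list, by 1.18. MYC3, a relative of MYC4, gave 0.40 and was not called. SIR, sulfite reductase, the only tested gene of nitrogen and sulfur assimilation, fell by 0.59 ± 0.12 (adjusted p = 0.0023).

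Of 5 tested genes of ascorbate and glutathione metabolism, a list also drawn up afterwards, 3 fell and 1 rose. VTC4, a phosphatase of ascorbate synthesis, had 76.4 and 124 at 22 °C and 174 and 200 at 16 °C at 10 h, against 758 and 1180 at 22 °C and 834 and 1220 at 16 °C at 4 h. It fell by 2.71 ± 0.16 (SE, adjusted p = 7.2e-08) with no overlap. GR1 and GR, both glutathione reductases, fell by 2.25 and 0.88. GME, an epimerase of the same ascorbate route, rose by 0.46 ± 0.12 (adjusted p = 0.012) and was no longer called in 7 of 17 alternatives.

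Cell wall genes moved in both directions within the same families. Of 5 tested genes of the list of cell wall expansion 2 rose and 2 fell. EXPA8 and EXPA15, expansins that loosen walls, fell by 1.90 and 1.15. EXPA8 had 131 and 120 at 22 °C and 46.7 and 58.8 at 16 °C at 10 h, against 314 and 414 at 22 °C and 245 and 475 at 16 °C at 4 h. The 2 that rose were XTH33 (2.21 ± 0.44) and XTH16 (0.96 ± 0.17), of the xyloglucan endotransglucosylase family, at 193 to 495 for XTH16 at 10 h against 123 to 178 at 4 h.

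Over the whole expansin family, counted afterwards, 3 of 10 tested genes rose and 4 fell. EXLA1, EXLB1 and EXPA16 rose, by 2.87, 1.29 and 1.04, and EXPB1, EXPA8, EXPB3 and EXPA15 fell, by 2.04, 1.90, 1.61 and 1.15. Of 4 tested XTH genes 3 rose and XTH32 fell, by 2.51 ± 0.13 (adjusted p = 2.5e-08), with 103 and 155 at 22 °C and 108 and 136 at 16 °C at 10 h, against 785 and 784 at 22 °C and 677 and 897 at 16 °C at 4 h. In the GH9 endoglucanase family 4 of 5 tested genes fell, GH9C2 by the most, and GH9B13 gave 0.05. The RALF family of cell wall signalling peptides, also counted afterwards, had 6 tested genes with a median of -0.26. RALFL22 and RALFL33 rose by 1.25 and 1.12, RALFL34 fell by 0.72, and the other 3 were not called.

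Of 5 tested beta-tubulin genes 3 rose and none fell. TUB9 had 708 and 774 at 22 °C and 776 and 917 at 16 °C at 10 h, against 322 and 376 at 22 °C and 239 and 353 at 16 °C at 4 h. It rose by 1.27 ± 0.14 (SE, adjusted p = 1.2e-05) with no overlap, TUB5 rose by 0.63, and TUB7 rose by 0.41, a call lost in 12 of 17 alternatives. TUB6 and TUB1 gave 0.01 and -0.12 and were not called, and beta-tubulin probe sets can share sequence between members.

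Auxin and shade genes had no common direction. Of 6 tested genes 2 rose and 1 fell, with a median of 0.12. IAA18, an auxin response repressor, had 231 and 203 at 22 °C and 182 and 204 at 16 °C at 10 h, against 78.7 and 102 at 22 °C and 72.1 and 111 at 16 °C at 4 h. It rose by 1.06 ± 0.15 (SE, adjusted p = 0.00011). WES1 (GH3.5), which conjugates auxin to amino acids, rose by 0.55, a call lost in 10 of 16 alternatives. HAT2, a homeodomain factor of shade and auxin responses, fell by 1.09 ± 0.18 (adjusted p = 0.00046), with 27.2 to 74.9 at 10 h against 107 to 126 at 4 h. IAA29, GH3.3 and YUC2 were not called, at -0.14 to 0.18.

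Sugar exporters of the SWEET family moved down or were not called. Of 14 with a named probe set 7 were bright enough to be tested, and 4 of these fell. SWEET13 (chr5:20665068-20667312), which exports sucrose towards the phloem, had 30.9 and 13.9 at 22 °C and 31 and 32.6 at 16 °C at 10 h, against 292 and 249 at 22 °C and 348 and 364 at 16 °C at 4 h. It fell by 2.95 ± 0.14 (SE, n = 4 pairs, adjusted p = 1e-08). SWEET17 and SWEET16, transporters of the vacuole membrane, fell by 1.33 and 0.82, and SWEET2 by 0.79. SWEET11, the close relative of SWEET13 in phloem loading, had 743 to 1070 at 10 h and 740 to 1020 at 4 h, gave 0.05 ± 0.14 and was not called.

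The serine carboxypeptidase-like and UGT families were counted after the values were seen. Of 14 tested carboxypeptidase-like genes 4 rose, with SCPL34 (1.98) and SCPL49 (1.90) first, and 5 fell by up to 0.98. Over all genes tested 12.9% were called higher and 12.6% lower. Of 21 tested UGT glycosyltransferases 3 rose and 8 fell, UGT78D1 and UGT78D2 among those that fell. Beside the same shares, the number of UGT rises is near that of all genes. UGT88A1 fell by 1.41 ± 0.15 (adjusted p = 9.4e-06), with 135 to 174 at 10 h against 368 to 541 at 4 h.

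Of 5 tested cold-responsive genes 3 rose and none fell. COR15B, a chloroplast-protecting protein made in the cold, had 2010 and 1410 at 22 °C and 4020 and 3000 at 16 °C at 10 h, against 433 and 320 at 22 °C and 1880 and 2000 at 16 °C at 4 h. It was brighter at 16 °C at either time and rose by 1.48 ± 0.22 (SE, adjusted p = 0.00018). COR47, a dehydrin, had 980 and 958 at 22 °C and 2250 and 2230 at 16 °C at 10 h, against 475 and 416 at 22 °C and 692 and 990 at 16 °C at 4 h, and rose by 1.26 ± 0.13 (adjusted p = 1e-05). LTI30, also a dehydrin, rose by 0.45, a call lost in 8 of 17 alternatives. COR15A, the neighbour of COR15B, gave 0.36 (adjusted p = 0.063) and STZ, a zinc finger repressor, gave 0.02.

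**Figure D2:**
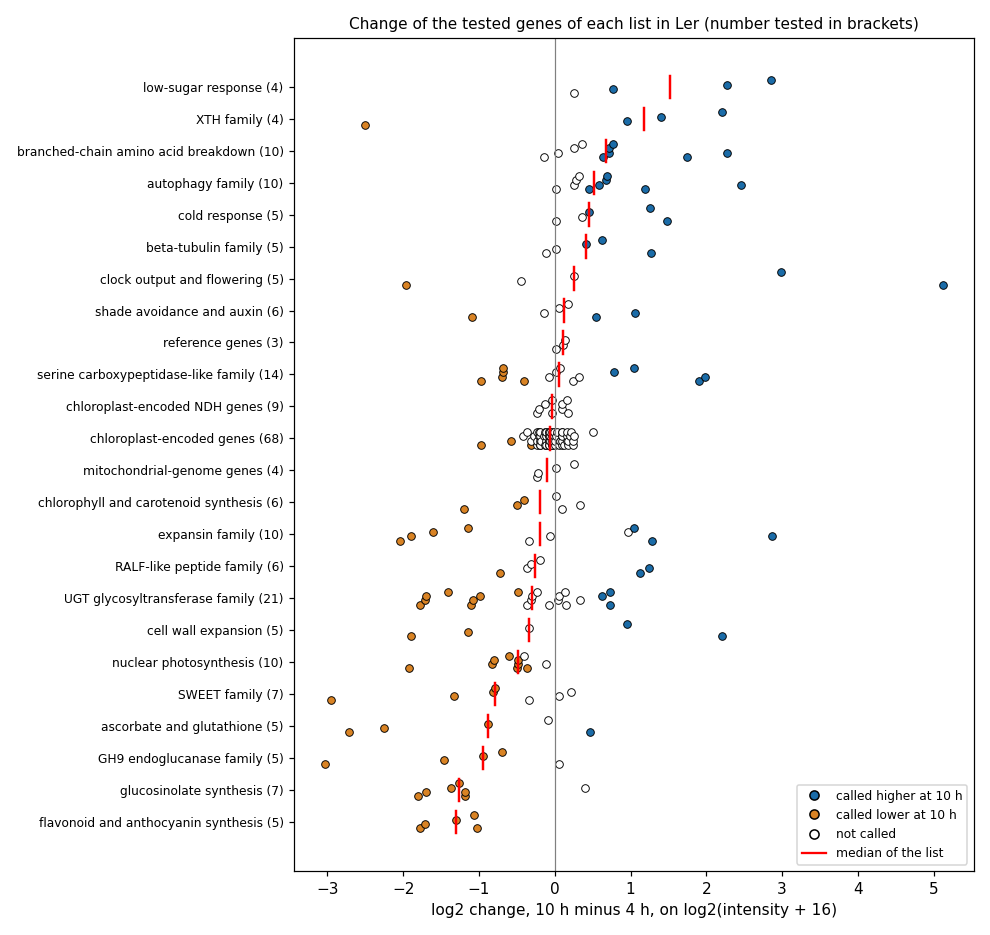
Log2 change, 10 h minus 4 h, of each tested gene in the lists with at least 3 tested genes, filled where called and open where not, with a red bar at the median of each list and the number tested in brackets. The median is 1.52 for low-sugar responses at the top and -1.31 for flavonoid and anthocyanin synthesis at the bottom, and the plastid-encoded genes sit near 0 at -0.06.

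The change, with its sign, was compared between temperatures as the change at 22 °C minus the change at 16 °C. It differed for 243 of the 13647 probe sets, which is 1.78%, in 76 with the higher change at 22 °C and in 167 with the lower. At an unadjusted p under 0.05 there were 1924. The 2 temperatures had the same direction of change in 154 of the 243 and opposite directions in 89. Without its sign, the change was larger at 22 °C in 133 of the 243 and larger at 16 °C in 110. The comparison rests on 2 pairs against 2 pairs, and the count ranged from 32 without the replicate 2 pair at 16 °C to 416 without the replicate 2 pair at 22 °C. In simulated data this test called 0 of 68 planted differences of 0.5 on the log2 scale, 1 of 66 of size 1 and 48 of 66 of size 2. The probe sets not called are therefore not shown to have changed alike at the 2 temperatures.

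EXLA1 (chr3:16896166-16897308), an expansin-like protein, had 169 and 169 at 22 °C and 840 and 1190 at 16 °C at 10 h, against 32.3 and 44.2 at 22 °C and 37.9 and 64.3 at 16 °C at 4 h. The 4 h values overlapped between temperatures, and those of 10 h did not. Its change was 1.78 at 22 °C and 3.95 at 16 °C, a difference of -2.17 ± 0.25 (SE, adjusted p = 0.00016). XTH33 had 54.2 and 29.2 at 22 °C and 256 and 191 at 16 °C at 10 h, against 16.2 and 17 at 22 °C and 5.8 and 0.748 at 16 °C at 4 h. Its change was 0.79 at 22 °C and 3.63 at 16 °C, a difference of -2.85 ± 0.36 (adjusted p = 0.00031). EXLA2, which was not called over all pairs, also differed, at -0.12 and 2.06 (difference -2.18, adjusted p = 0.0024), a call lost without either pair at 16 °C (adjusted p = 0.098 and 0.052).

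Of the 2 tested genes in the list of chaperones, AT5G48570 (ROF2) gave 0.03 over all pairs and was not called. The other, AT3G09440, entered as the heat shock cognate protein HSC70-3, fell at both temperatures, and by more at 22 °C. It had 74.2 and 131 at 22 °C and 762 and 977 at 16 °C at 10 h, against 834 and 1080 at 22 °C and 1200 and 1770 at 16 °C at 4 h. The lowest values were those of 10 h at 22 °C, with a change of -3.07 at 22 °C and -0.74 at 16 °C, a difference of -2.33 ± 0.22 (SE, adjusted p = 2.8e-05). COR15B rose by 2.13 at 22 °C and by 0.83 at 16 °C (difference 1.29 ± 0.22, adjusted p = 0.0038). BCAT4 fell by 1.87 and AOP3 by 2.05 at 22 °C, against changes of -0.50 and -0.70 at 16 °C, with differences of -1.37 (adjusted p = 0.0024) and -1.35 (adjusted p = 0.0025). Without the replicate 2 pair at 16 °C the differences of COR15B, BCAT4 and AOP3 were 1.04, -1.14 and -1.22 and were not called (adjusted p = 0.12, 0.096 and 0.092).

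AT5G03350 changed in opposite directions at the 2 temperatures. It had 384 and 481 at 22 °C and 1020 and 1870 at 16 °C at 10 h, against 1200 and 1150 at 22 °C and 595 and 519 at 16 °C at 4 h. The change was -1.42 at 22 °C and 1.29 at 16 °C, a difference of -2.71 ± 0.28 (SE, adjusted p = 3.9e-05), and over all 4 pairs it was -0.07. AT3G62950 (-0.37 and 2.26) and AT1G68440 (0.34 and 2.96) had higher changes at 16 °C than at 22 °C, the 22 °C change being given first. AT1G61740 (1.89 and 0.07), AT5G57655 (2.16 and 0.19), AT1G30250 (2.76 and 0.90) and AT5G24340 (1.37 and -0.60) had the higher change at 22 °C. Without the replicate 1 pair at 16 °C the calls of AT5G57655 and AT3G62950 were lost (adjusted p = 0.071 and 0.085), without the replicate 2 pair at 16 °C that of AT1G30250 (0.059), and without either that of AT5G24340 (0.23 and 0.17). Of the 21 named genes and probe sets whose change differed, none kept the call in every alternative. EXLA1, AT3G09440 and AT1G61740 lost it only in the fit of all 16 arrays among the 13 alternatives. That fit includes the phyB-1 arrays labelled 16 °C, some of which stood with arrays of the other time than their label.

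**Figure D3:**
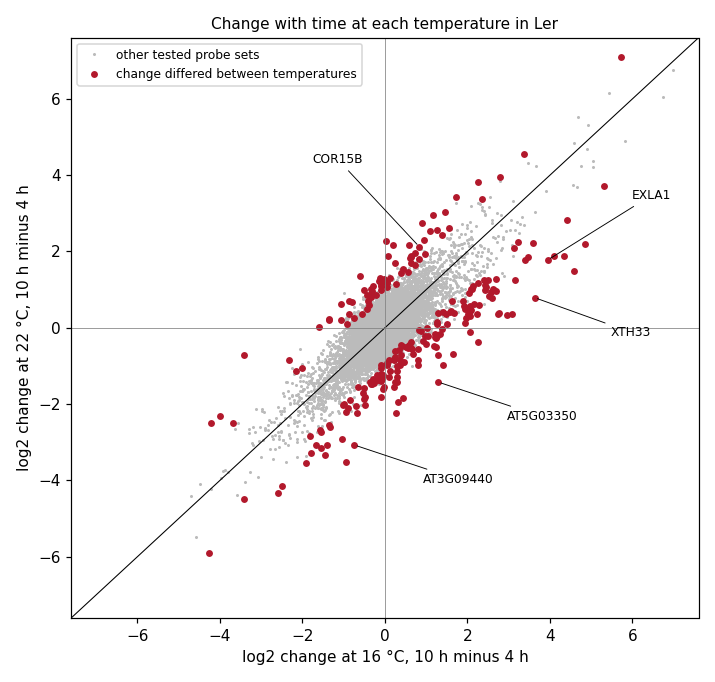
Log2 change, 10 h minus 4 h, at 22 °C on the vertical axis against 16 °C on the horizontal axis for the 13647 tested probe sets, with the 243 whose change differed between temperatures in red and the line of equal change. EXLA1 and XTH33 lie below the line at 3.95 and 3.63 on the 16 °C axis, and COR15B above it.

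**Figure D4:**
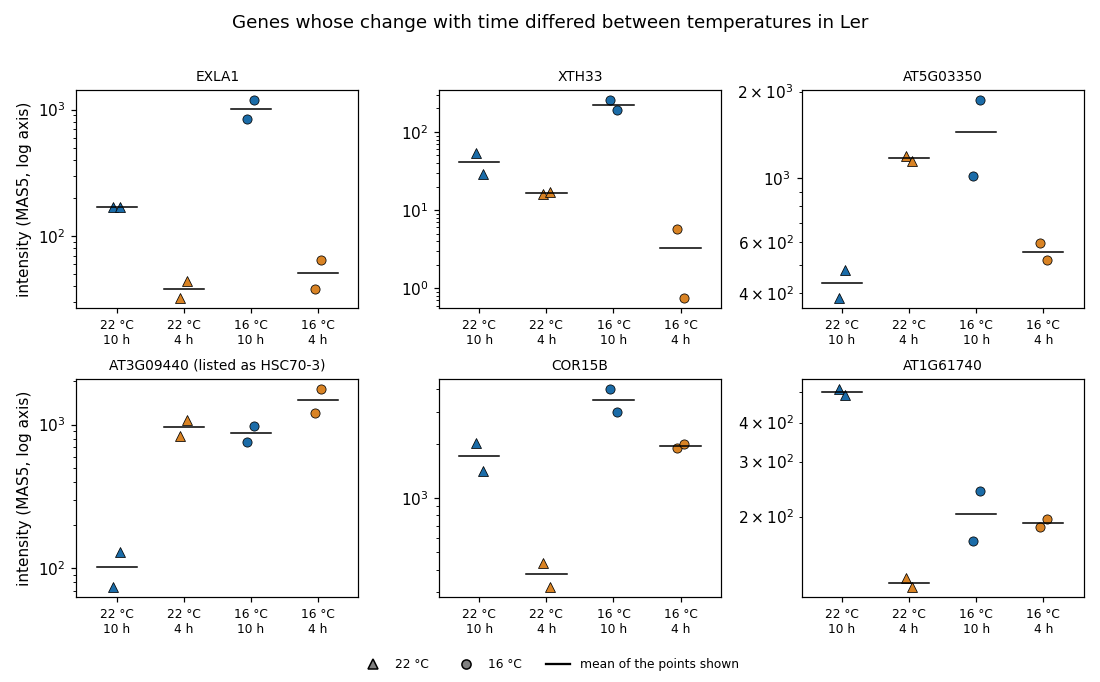
Intensity on a log axis on each Ler array for 6 genes whose change differed between temperatures, with 10 h left of 4 h within 22 °C (triangles) and 16 °C (circles) and a line at the mean of 2 arrays. AT5G03350 is lower at 10 h than at 4 h at 22 °C and higher at 10 h than at 4 h at 16 °C; EXLA1 reaches 840 and 1190 at 10 h only at 16 °C.

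The change with time in Ler at 22 °C was set against that in phyB-1 at 22 °C, whose 4 arrays entered the values above only through the alternative fit of all 16 arrays. Of 3828 probe sets called in Ler over both temperatures, 3717 had the same direction in phyB-1 at 22 °C alone. The share with the same direction over all tested probe sets was not counted. The other phyB-1 arrays were left out because some of them stood with arrays of the other time than their label. The 15 genes with the largest rises all had a positive change in phyB-1, from 1.91 to 4.94, and the 15 with the largest falls all had a negative one, from -1.77 to -4.93. The difference of the 2 changes, Ler minus phyB-1, was called for 5 of 13647 probe sets, which is 0.0366%, with 757 at an unadjusted p under 0.05. In simulated data this test called 0 of 68 planted differences of 0.5 on the log2 scale. It called 2 of 66 of size 1 and 52 of 66 of size 2, and, in the same simulated data, 7 probe sets that held no planted difference. A low count therefore does not show that the 2 genotypes changed alike.

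AT5G55450 had 760 and 846 at 10 h and 229 and 178 at 4 h in Ler, against 186 and 141 at 10 h and 134 and 90.9 at 4 h in phyB-1. Its change was 1.91 in Ler and 0.49 in phyB-1, a difference of 1.41 ± 0.23 (SE, adjusted p = 0.033), lost in 9 of 13 alternatives. AT5G03350 had 384 and 481 at 10 h and 1200 and 1150 at 4 h in Ler, against 103 and 152 at 10 h and 804 and 1140 at 4 h in phyB-1. It fell in both, by 1.42 in Ler and by 2.78 in phyB-1 (difference 1.36 ± 0.20, adjusted p = 0.014), and the difference was no longer called in 6 of 13 alternatives. Both differences lost the call without either phyB-1 pair (adjusted p of 0.52 to 1), and that of AT5G55450 also without the replicate 2 pair of Ler (0.051).

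The other 3 were probe sets not named in the annotation used, picked out after their values were seen. Probe set 245325_at had 48.6 and 62.1 at 10 h and 25.4 and 9.89 at 4 h in Ler, against 830 and 922 at 10 h and 37.9 and 31.5 at 4 h in phyB-1, a difference of -3.02 ± 0.31 (SE, adjusted p = 0.00036). Probe set 256766_at had 2730 and 2690 at 10 h and 671 and 778 at 4 h in Ler, against 1490 and 1710 at 10 h and 1690 and 1430 at 4 h in phyB-1, so that its groups separated by time in Ler and overlapped in phyB-1. The difference was 1.85 ± 0.20 for 256766_at and 1.79 ± 0.21 for 265837_at (adjusted p = 0.00036 and 0.0011).

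Reference genes and markers of tissue were read as a check. None of the 3 tested reference genes was called, with changes of 0.01 to 0.14: PEX4 (UBC21), AT2G28390 (SAND) and AT4G34270 (TIP41L). RCA, at 3990 or more on every Ler array, was the only named gene of the 8 leaf markers, and it fell by 0.83 (adjusted p = 7.5e-05), as given above. Of 12 root markers 3 were named. EXPA7 and EXPA18 were too dim to be tested, at 46.1 or less on every array, and PYK10, a beta-glucosidase of root endoplasmic reticulum bodies, had 118 to 259 at 10 h and 92.2 to 234 at 4 h and was not called. FMA and SPCH of the stomatal lineage, at 0.11 and -0.19, were not called, and no flower marker had a named probe set. The part of cell composition in the results was not tested.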

How the data were processed

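RNA from Ler shoots was measured on Affymetrix ATH1 arrays. The authors deposited a linear intensity for each probe set. The submitters' processing notes name MAS5 and GCOS, and versions are not given in the sources used here. The deposited scaling was kept. The file holds 22810 probe sets, 64 of them controls, which were left out. Of the rest, 13513 had 1 gene in the platform annotation, 503 several and 8730 none listed. Gene names rest on probe sets of a single gene, and coordinates are RefSeq's for TAIR10.1. A gene with several probe sets is represented by its brightest named one.

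Values were analysed as log2(intensity + 16) in R 4.3.3 with limma 3.58.1 (lmFit, eBayes with an intensity trend, Benjamini-Hochberg) over the upper 60% of probe sets by mean, with the 4 pairs as a block. The interactions with temperature (8 Ler arrays) and genotype (8 arrays at 22 °C) used the same model. Scripts were tested on simulated data. Same-numbered arrays deviated together from their group means (r of 0.156 to 0.411 in all 6 pairs of groups), so the labels' replicate numbers were taken as pairing the arrays. The r was 0.411 at 16 °C and 0.317 at 22 °C, and 0.156 to 0.187 between temperatures. Ler array medians were 36.8 to 39.5 for replicate 1 and 30.7 to 33.1 for replicate 2. The part of this difference between the sets in the correlations was not tested. The number of arrays limits the precision.

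The comparison, its members and the gene lists were chosen with earlier results of these data known. Named are the 15 largest rises and 15 largest falls among called genes with the same sign in all pairs, arrays apart and a mean of at least 64 at the higher time. Also named are all tested clock genes, the largest differences of each interaction, and at most 2 unnamed probe sets each way. Up to 6 called members of each list were planned, and more are named for some lists. Some members of a list that were not called are named beside them, chosen after their values were seen. The lists of amino acid breakdown, glucosinolates, ascorbate and glutathione, and the expansin, XTH, GH9, carboxypeptidase, RALF and UGT families were added after the values were seen. Lists are described by counts, and no set test was run. Of the lists of jasmonate response, defence and cell division, 1, 0 and 0 genes were tested, and none was called. Families defined by protein descriptions, and promoter sequences, were not analysed here.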

Additional observations from a re-analysis of the deposited data

Results flagged for a closer look

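A single array stood far from the other 3 of its time in 12 of the 288 groups of 4 arrays looked at, where chance gives about 1 in 20. The share of the group's whole log2 range taken by the gap was 0.925 for SWEET13 at 10 h (13.9 against 30.9 to 32.6) and 0.923 for 252367_at at 10 h, in both with the low array at 22 °C, replicate 2. At 10 h it was 0.902 for RCA and 0.851 for CHLM, both with the array of 22 °C, replicate 1, 0.889 for ETFQO and 0.882 for AT5G55450, both with 16 °C, replicate 1, and 0.861 for UGT85A5 with 16 °C, replicate 2. At 4 h it was 0.897 for SBPASE, 0.893 for ATG8D and 0.936 for scpl46, all with the array of 22 °C, replicate 2, 0.924 for WES1 with 16 °C, replicate 1, and 0.913 for UGT71C4 with 16 °C, replicate 2.

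The change with time differed between temperatures, by the interaction test, for 21 named genes and probe sets. The change at 22 °C minus that at 16 °C was -2.85 for XTH33, -2.71 for AT5G03350, -2.63 for AT3G62950, -2.62 for AT1G68440, -2.33 for AT3G09440, -2.18 for EXLA2, -2.17 for EXLA1, -1.65 for 262113_at, -1.37 for BCAT4, -1.35 for AOP3, -1.26 for SNZ and -1.07 for AT1G73600. It was 1.97 for AT5G24340, 1.97 for AT5G57655, 1.85 for AT1G30250, 1.82 for AT1G61740, 1.38 for 267461_at, 1.29 for COR15B, 1.24 for AT2G05540, 1.21 for AT1G20070 and 1.2 for the plastid gene petG. Ler and phyB-1 differed in their change at 22 °C by 1.36 for AT5G03350 and 1.41 for AT5G55450.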

How the results depend on the processing

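Of the 128 called named genes and probe sets, 85 kept the call in every alternative in which they were tested and 43 lost it in at least 1 of up to 17. The count of 3828 was 2347 in a fit of all 16 arrays with 1 mean per group, 1932 from the replicate 1 pairs alone, 1250 with a log2 change of at least 1 and 253 with at least 2 (added after seeing the data). It stayed within 1.5 times under the others, with 3170 without the replicate block. Median centring made 55.1% of the calls higher, against 49.3% with the deposited scaling. The 243 differences between temperatures became 12 without a filter, 28 without the replicate block, 38 without the intensity trend, 0 in the fit of all 16 arrays, and 32 to 416 with a pair left out (70 without replicate 1 at 16 °C). The 5 between genotypes became 11 with an offset of 64, 0 without a filter, 3 without the replicate block, 0 without the trend, 0 in the fit of all 16 arrays, and 0 to 28 with a pair left out (16 without Ler replicate 1, 28 without Ler replicate 2, 0 without phyB-1 replicate 1 and 1 without phyB-1 replicate 2). The fit of all 16 arrays includes the phyB-1 arrays labelled 16 °C, some of which stood with arrays of the other time than their label. Their part in its lower counts was not tested. Under quantile normalization atpB gave 0.03 and rpl33, not called otherwise, 0.27. With 1 in place of the added 16, list medians were 1.91 for low-sugar responses, -1.82 for flavonoids, -1.61 for GH9 and -0.96 for SWEET genes; with 64 they were 1.03, -0.80, -0.62 and -0.42, and 0.39 for amino acid breakdown. Quantile normalization gave -0.37 for nuclear photosynthesis and 0.11 for the plastid NDH genes. For these the cause was not tested. Dim probe sets depend on the added 16, and MAS5 values near background carry little information on fold.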

Other observations

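A few genes of the added families are not yet described. In the GH9 family GH9B8 fell by 1.46, GH9B5 by 0.95 and GH9B7 by 0.69. EXGT-A3 (XTH27), of the XTH family, had 842 and 440 at 22 °C and 757 and 882 at 16 °C at 10 h, against 182 and 306 at 22 °C and 230 and 341 at 16 °C at 4 h, and rose by 1.40 ± 0.20 on the log2 scale (limma, adjusted p = 0.00017). UGT74D1, UGT76E11 and UGT84A3 fell by 1.11, 1.08 and 0.99, and UGT85A2, UGT71C5 and UGT85A5 rose by 0.73, 0.73 and 0.63, the last 2 not called in 5 of 17 and 7 of 16 alternatives. AT4G33150, annotated as the lysine-degrading enzyme LKR/SDH, rose by 0.71 ± 0.17 (adjusted p = 0.0057).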
